A study of Mus musculus with 4 samples.

Results

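The cells described here are bone marrow progenitors that carried transcripts of Flt3, the receptor for FLT3 ligand, together with Dntt, which encodes terminal deoxynucleotidyl transferase. They were chosen by their raw counts of unique molecular identifiers (UMIs, each marking 1 captured transcript). A member had at least 1 UMI of Flt3, at least 1 of Dntt and at least 1 of Cd34, Adgrg1 or Kit together, no UMI of Siglech, Cd79a or Cd79b, and at most 1 UMI of the stem cell genes Hlf, Mecom, Procr and Meis1 together. Of 39167 cells that had 200 to 10000 detected genes and at most 10% mitochondrial UMIs, 92 met the rule. The study profiled bone marrow mononuclear cells from 2 TLR9-/- and 2 WT mice of the C57BL/6 strain by sequencing the 5′ end of transcripts in single cells, with 1 library per mouse, to ask how loss of TLR9, a receptor for unmethylated CpG DNA, is reflected in the marrow. The labels name no treatment for either group, and an age for the sequenced mice was not given in the sources used here. The genotype is that of the whole animal, so loss of TLR9 in the progenitors and in the cells around them cannot be told apart.

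Members numbered 27 and 28 in the TLR9-/- libraries 1 and 2, and 18 and 19 in the WT libraries 1 and 2. Values below are given in this order of libraries, namely TLR9-/- 1, TLR9-/- 2, WT 1 and WT 2. The members' summed UMIs were 231056, 277617, 114298 and 126710. The median member held 8503, 8741, 5636 and 4081 UMIs, so the median TLR9-/- member held more UMIs than the median WT member. Some cell barcodes occurred in more than 1 library, 797 in all, and 5 of the 92 members had such a barcode.

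FLT3 signalling marks progenitors at the branch between myeloid and lymphoid fates. Terminal deoxynucleotidyl transferase adds nucleotides without a template to immunoglobulin and T cell receptor joints, and its transcript appears before antigen receptor genes are rearranged. Progenitors with both transcripts are known as lymphoid-primed multipotent progenitors or early lymphoid progenitors, and they give rise to B cells, T cells and part of the dendritic cell pool. Il7r, the receptor chain for interleukin 7, and Ly6d, a surface protein, come on as such cells turn toward the B lineage.

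The promoters of Dntt, Il7r and Myl10 are shown. Dntt chose the cells, and Il7r and Myl10 (a myosin light chain) were higher in them than in Flt3 progenitors without Dntt. Each line gives the 150 bases before the start of the RefSeq gene on build GRCm38.p6, written 5′ to 3′ on the strand of the gene. Capitals mark a match, on either strand, to 1 of 4 motifs searched, the E-boxes CAGGTG and CAGCTG, the ETS core AGGAAG and the RUNX core TGTGGT.
Dntt, chr19:41029125-41029274, plus strand: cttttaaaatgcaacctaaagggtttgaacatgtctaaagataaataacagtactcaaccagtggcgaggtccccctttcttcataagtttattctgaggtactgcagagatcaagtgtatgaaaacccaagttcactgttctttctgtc
Il7r, chr15:9529877-9530026, minus strand: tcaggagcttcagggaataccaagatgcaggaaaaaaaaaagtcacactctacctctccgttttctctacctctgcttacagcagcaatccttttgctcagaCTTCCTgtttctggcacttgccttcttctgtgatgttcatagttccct
Myl10, chr5:136692996-136693145, plus strand: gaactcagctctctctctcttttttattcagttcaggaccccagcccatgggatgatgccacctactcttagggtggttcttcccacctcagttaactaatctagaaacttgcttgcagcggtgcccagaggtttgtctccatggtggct
Il7r held 1 match, the reverse complement of AGGAAG, 48 to 43 bases before the start, and the Dntt and Myl10 windows shown held none. Myl10 has 2 further RefSeq windows, of which that at chr5:136693526-136693675 held 1 AGGAAG, 47 to 42 bases before its start, and that at chr5:136694027-136694176 held none. Among 32851 RefSeq promoter windows of this length, 10.6% held CAGGTG, 8.39% CAGCTG, 19.7% AGGAAG and 8.40% TGTGGT.

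The genes of the rule are given as a description, since they chose the cells. Dntt had 690 UMIs over the 92 members, with a median of 3, 7.5, 5 and 3 UMIs per member in the 4 libraries and a maximum of 34. Flt3 had 245 UMIs with medians of 3, 3, 1 and 2. Cd34 was seen in 78 members, Adgrg1 in 68 and Kit, the stem cell factor receptor, in 25, so that the progenitor condition was met mostly through Cd34 and Adgrg1. Members close to the limits were common, as 22 had exactly 1 Flt3 UMI, 18 exactly 1 Dntt UMI and 4 exactly 1 of each. Just outside the rule, 37 cells met every other condition but had 1 UMI of Cd79a or Cd79b, and 10 cells met every other condition but had 2 UMIs of the stem cell genes. The condition that separated the most cells was Dntt, as 218 cells met all others but had no Dntt UMI.

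The markers Myl10 and Satb1, which the rule did not use, are given as a description. They were named with earlier results of these data known and so are no independent check of the label of lymphoid priming. Myl10 was detected in 65 of 92 members (70.7%) and in 1.79% of 7598 neutrophils, which should lack it and show the level of free RNA, at median depths of 7002 and 3151 UMIs. Satb1, a chromatin organiser that acts in early lymphoid progenitors, was detected in 57 members (62.0%) and in 13.5% of neutrophils. With every cell thinned to 2000 UMIs, which left out 2600 neutrophils and no member, the shares were 44.6% against 0.400% for Myl10 and 19.6% against 6.48% for Satb1. Over all members both shares were above those of neutrophils, although Satb1 at 2000 UMIs was at 3.70% in TLR9-/- 1. Without thinning, 42 members had both markers. The myeloid gene Mpo was then detected in 18, 22, 8 and 8 members and Satb1 in 11, 17, 16 and 13.

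Markers of mature lineages were then counted in the members. The rule itself set Cd79a, Cd79b and Siglech to 0 and limited the stem cell genes, so their counts are no check. Of the B cell markers that the rule did not use, Ms4a1 was among those at 0 in all 4 libraries, and the list summed to 6, 33, 4 and 10 UMIs, led by Cd74 in 3 libraries and by Igkc in TLR9-/- 1. Of 8 T and NK cell markers, the Cd3 genes were at 0 and nearly all UMIs were those of Nkg7, with 42, 53, 33 and 13, spread over members except in WT 1, where the top member held 23 of the 34 UMIs of the list. Of the plasmacytoid dendritic cell markers that the rule did not use, Ccr9, Klk1 and Cd209d were at 0, and Bst2 and Cox6a2 led the list. The neutrophil list summed to 28, 147, 183 and 4666 UMIs and was led by S100a8, and 1 cell held 4611 of the 4666 UMIs in WT 2. The erythroid list summed to 97, 21, 1364 and 17 UMIs, and 1 cell held 1342 of the 1364 UMIs in WT 1. The monocyte and macrophage list summed to 186, 114, 96 and 298 UMIs, led by Lyz2 in 3 libraries and by Ly6c2 in WT 1. The top members held 141, 15, 60 and 165 of these UMIs, and 1, 0, 1 and 2 members held 20 or more. This list was not part of the screens below. The megakaryocyte list did not exceed 3 UMIs in any library, the basophil and mast cell list did not exceed 16, and the plasma cell list did not exceed 29. The stem cell list, part of which the rule limited, was led by Ly6a and summed to 24, 35, 22 and 21 UMIs, and Gata2, which the rule did not use, was at 0. In all, 5 members (1, 1, 2 and 1) held 20 or more UMIs of the neutrophil, erythroid, plasma cell or T and NK cell list, and results are also given without such cells where that changes them. A wider screen for likely doublets, cells over 2.5 times the median UMIs or with 5 or more UMIs of those lists together, marked 40 of the 92 members and was used only as an alternative.

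Levels below are CPM, the usual per-library scaling of counts, taken from the UMIs summed over the members of a library relative to their total, on a scale shared by the 4 populations compared. Fold changes come from each comparison's own fit by edgeR's quasi-likelihood test with library as a block, n = 4 libraries, and Benjamini-Hochberg adjusted p over all genes tested. The comparison populations were defined by genes of the rule, and genes that accompany Dntt, Cd79a or the stem cell genes move with that choice, so the differences describe these cells as chosen. A gene abundant in only 1 of the populations compared could pass the filter on low counts through that population and then had to differ, so counts and medians over the tested genes of a list are descriptions only.

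The nearest population was that of the 218 Dntt-negative Flt3 progenitors (77, 64, 32 and 45 cells), which met every condition except Dntt. Compared with them, the Dntt-positive members had more transcripts of lymphoid priming genes and fewer of myeloid priming and monocyte genes. Of 3221 genes tested, 275 (8.54%) passed the test, 144 higher (4.47%) and 131 lower (4.07%). Of the 20 lymphoid priming genes, 12 were tested, 10 were higher and none was lower, with a median log2 fold change of 1.33 against 0.03 over all genes tested.

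Ly6d stood at 447, 193, 637 and 217 CPM in the members and at 5.51, 0, 0 and 4.73 CPM in the Dntt-negative cells. The log2 fold change was 6.94 (SE 0.34, adjusted p = 6.69e-07). The Ly6d transcripts came from few cells, since 5, 4, 5 and 5 members had any, and the top member held 87 of 107, 25 of 55, 60 of 78 and 22 of 29 UMIs. Il7r stood at 117, 66.7, 155 and 135 CPM against 0, 2.42, 4.30 and 4.73 CPM, with a log2 fold change of 5.53 (SE 0.42, adjusted p = 1.83e-05), and was spread over 8, 8, 8 and 5 members. For both genes the lowest member library was far above the highest Dntt-negative library.

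Myl10 stood at 334, 260, 661 and 531 CPM in the members and at 42.7, 2.42, 68.8 and 47.3 CPM in the Dntt-negative cells, a log2 fold change of 3.81 (SE 0.31, adjusted p = 2.07e-05). Satb1 stood at 79.3, 112, 204 and 179 CPM against 30.3, 44.8, 51.6 and 49.7 CPM, a log2 fold change of 1.78 (SE 0.21, adjusted p = 0.000366). Neither gene overlapped between the populations. Notch1, the receptor that directs progenitors to the T lineage, was at 104, 123, 131 and 120 CPM against 53.7, 53.2, 47.3 and 61.5 CPM, a log2 fold change of 1.31 (SE 0.19, adjusted p = 0.00154). The other lymphoid priming genes that rose were Cd27, Mef2c, Sox4, Bcl11a and Tcf3, with log2 fold changes of 1.49, 1.36, 1.16, 1.16 and 0.86. Of the B-lineage commitment list only 2 of 18 genes were abundant enough to test, and Ighm, whose sterile transcripts precede rearrangement, was higher (1.22, SE 0.21, adjusted p = 0.00422) while Cd24a was at 0.19 (adjusted p = 0.686).

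Outside that list, the highest folds belonged to Cox6a2 (3.47), Il12a (2.64), Gimap6 (2.44), Ly6a (2.32), Sept1 (2.13), H2-Ob (2.11) and Xrcc6 (2.01), all on the log2 scale. Cox6a2, a cytochrome c oxidase subunit known from plasmacytoid dendritic cells and muscle, stood at 125, 140, 416 and 292 CPM against 22, 12.1, 64.5 and 4.73 CPM. Ly6a encodes the stem cell antigen Sca-1, and Gimap6 is a GTPase of lymphocytes. Xrcc6 encodes Ku70, which binds broken DNA ends in the joining of antigen receptor segments. Il12a, a subunit of interleukin 12, was even across the member libraries, at 192, 179, 196 and 194 CPM. Of the 7 stem cell and multipotent progenitor genes tested, Ly6a, Angpt1 and Hoxa9 were higher and none was lower (median 0.50). Of 11 cytokine and growth factor receptors tested, Il7r, Il2rg and Notch1 were higher, and 2 were lower, among them the macrophage receptor Csf1r (-1.36, SE 0.33, adjusted p = 0.0247).

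Myeloid genes were lower in the members. Of 15 myeloid priming genes tested, 11 were lower and none was higher, with a median log2 fold change of -1.81. Mpo, the myeloperoxidase of granules, stood at 405, 899, 784 and 82.2 CPM against 2373, 3547, 2110 and 1623 CPM, a log2 fold change of -2.18 (SE 0.28, adjusted p = 0.000653). Ccr2, a chemokine receptor of monocytes, stood at 20.9, 7.02, 16.3 and 15 CPM against 150, 134, 112 and 87.5 CPM (-2.96, SE 0.31, adjusted p = 0.000163). Both genes were lower in every library. All 6 tested markers of monocytes and macrophages were lower, while of 5 tested neutrophil markers S100a9 was the one that passed. The serine protease genes Prtn3 (-2.33) and Elane (-3.45) were lower as well, although 1 member in WT 1 held 411 of that library's 412 Elane UMIs. Irf8, a factor of monocyte and dendritic cell fate, was at -0.68 (SE 0.22, adjusted p = 0.0932).

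Among the genes that moved alike in all 4 libraries and reached 50 CPM in the higher population, the lowest folds were H2-Aa (-4.79), H2-Eb1 (-3.80) and Cd74 (-3.33), which serve class II antigen presentation, as does H2-Ob, which was higher. H2-Aa stood at 4.17, 3.51, 0 and 22.4 CPM in the members and at 180, 113, 365 and 336 CPM in the Dntt-negative cells. Other genes among the 10 lowest of this kind were Ly6c2 (-3.27), F13a1 (-2.79), Lgals3 (-2.72), Anxa3 (-2.54) and S100a9 (-2.46). S100a9 rested on few cells of either population, since without the cells that held 20 or more UMIs of a mature lineage its log2 fold change was 0.51. Without those cells, 323 genes passed the test in place of 275, whereas 115 passed without the TLR9-/- 1 libraries, 92 without the TLR9-/- 2 libraries and 122 without likely doublets.

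**Figure D1:**
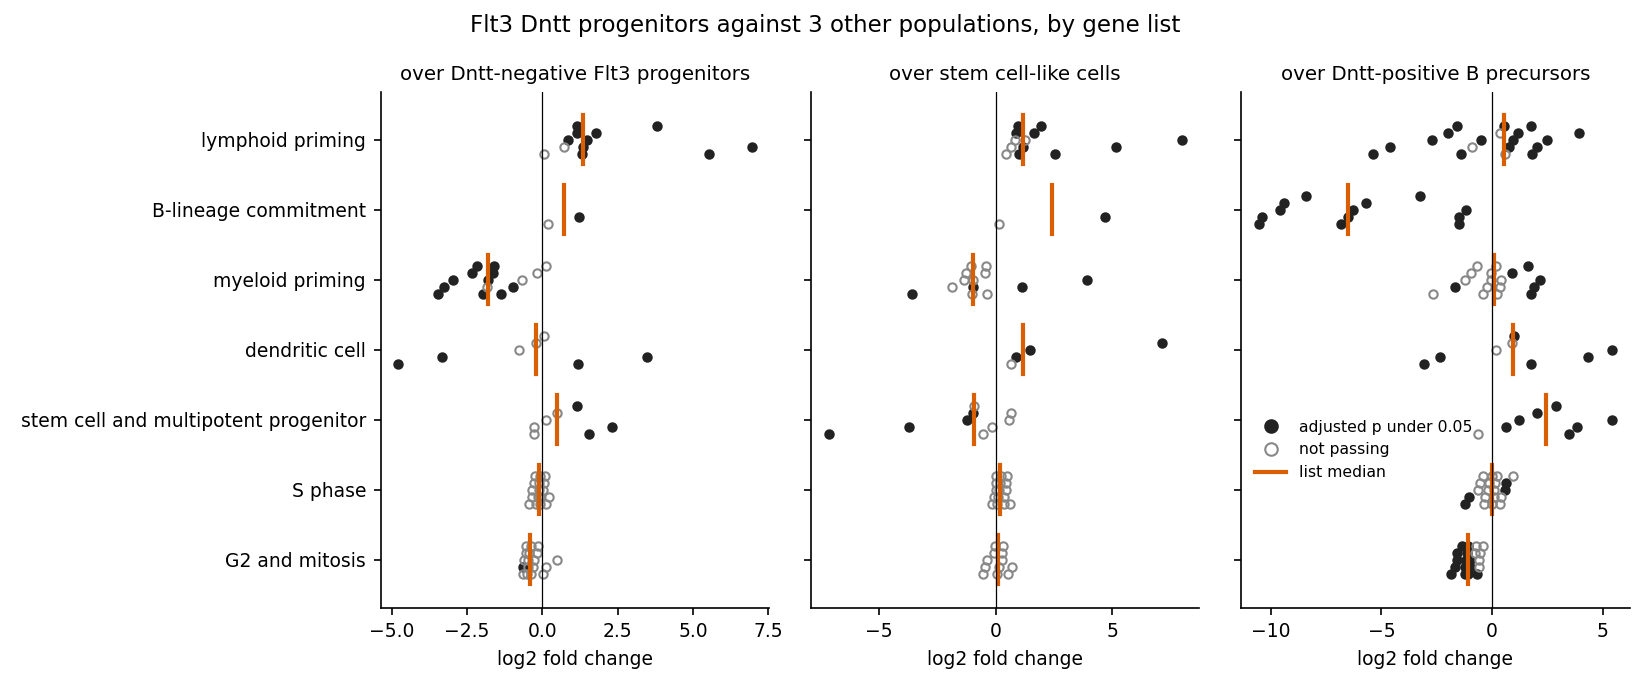
Log2 fold changes of the Flt3 Dntt progenitors over each of 3 other populations, for the tested genes of 7 lists. Filled points passed an adjusted p of 0.05, open points did not, and the orange bar is the list median. Lymphoid priming genes lay to the right over the Dntt-negative progenitors (median 1.33) and B-lineage genes, most of which were tested only through their level in the B precursors, lay to the left over these (median -6.52).

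The stem cell-like cells (55, 44, 12 and 28 cells) had 2 or more UMIs of Hlf, Mecom, Procr and Meis1 with a progenitor transcript and no Dntt. The members had more lymphoid priming transcripts than these cells and fewer of stem cell genes. Of 13 myeloid priming genes tested, Irf8 and Plac8 were higher, Mpo and Cd9 were lower and 9 did not pass (median -0.996), of 4 tested monocyte markers 1 was higher, and of 4 tested dendritic cell genes 3 were higher (Cox6a2, Tcf4 and Bst2). Of 2633 genes tested, 136 (5.17%) passed, 84 higher (3.19%) and 52 lower (1.97%), and 9 of 13 lymphoid priming genes were higher and none lower, with a median of 1.18 against 0.00 over all genes. Irf8 stood at 321, 302, 474 and 239 CPM in the members and at 31.8, 16.8, 12.3 and 10.5 CPM in the stem cell-like cells, a log2 fold change of 3.92 (SE 0.25, adjusted p = 2.59e-06). Ighm stood at 284, 327, 278 and 411 CPM against 19.1, 11.2, 0 and 5.27 CPM (4.70, SE 0.31, adjusted p = 2.59e-06). The libraries of the populations did not overlap for either gene.

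The other highest folds were Ly6d (7.97), Cox6a2 (7.11), Il7r (5.16), the calponin gene Cnn3 (4.92), Ly86 (4.04), Mpeg1 (3.51), the noncoding AC140186.1 (3.43) and Fbxw4 (2.92). Ly86 encodes MD-1, a partner of the TLR homologue RP105, and Mpeg1 a pore-forming protein of phagocytes. Myl10 and Satb1 were higher by 1.94 (SE 0.17) and 1.63 (SE 0.25). Angpt1, a ligand made by stem and progenitor cells, was lower (-1.25, SE 0.24, adjusted p = 0.00976), as was Lmo2 (-0.99, SE 0.16). Gata2, a factor of stem, mast and megakaryocyte cells, had 0 UMIs in the members and 85 in the stem cell-like cells, at least 16.9-fold lower taking 3 UMIs over all members as the floor. Pdzk1ip1 (-4.41), the tetraspanin gene Cd9 (-3.58) and Apoe (-3.55) were also among the 10 lowest.

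The stem cell-like population was itself mixed. Pf4, a platelet chemokine, stood there at 4119 and 3199 CPM in the TLR9-/- libraries and at 0 and 21.1 CPM in the WT libraries, and S100a8 at 2137 and 1616 CPM against 33280 and 22491 CPM. Neutrophil genes were accordingly among the lowest folds, with Ngp at -4.62, S100a9 at -3.95, S100a8 at -3.48, Lcn2 at -3.18 and Chil3 at -3.16, and the part of such RNA in other genes was not tested. Without the cells that held 20 or more UMIs of a mature lineage, 200 genes passed in place of 136, whereas 39 passed without the TLR9-/- 1 libraries, 62 without the TLR9-/- 2 libraries, 226 without the WT 1 libraries and 31 without likely doublets.

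The 1179 Dntt-positive B precursors (277, 124, 391 and 387 cells) had Dntt, a Cd79a or Cd79b UMI and a Vpreb1 or Igll1 UMI, and no Flt3. Between 2 populations that both express Dntt, genes of multipotent cells were higher in the members, while Ebf1, Vpreb3 and Pax5 were lower. Of 6036 genes tested, 1243 (20.6%) passed, 598 higher (9.91%) and 645 lower (10.7%). Of 18 B-lineage commitment genes 13 were tested and all 13 were lower (median -6.52 against -0.02 over all genes), but against Dntt-negative cells only 2 were abundant enough to test, so most entered here through the B precursors and this direction was fixed by the filter. Pax5, the B cell commitment factor, had 0 UMIs in the members, at least 38.5-fold lower than in the B precursors. Lef1 and Id3 were at 0 as well, at least 74.6-fold and 108-fold lower, and Cplx2, Gm37065, Akap12, Slamf7 and Gfra2 likewise had 0 UMIs. Ebf1, which precedes Pax5 in B cell specification, stood at 20.9, 38.6, 8.16 and 44.9 CPM in the members against 3091, 1791, 3660 and 2474 CPM, a log2 fold change of -6.27 (SE 0.26). Vpreb3, a chaperone of the pre-B cell receptor, stood at 4.17, 0, 8.16 and 15 CPM against 3912, 3243, 5678 and 4864 CPM (-9.40, SE 0.23). Both genes entered through the B precursors, so their values are a description and no p is given.

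The lymphoid priming list divided between these populations, with 9 of 19 genes higher and 7 lower in the members. The higher ones included Cd27 (3.92), Gpr171 (2.49), Satb1 (2.02) and Notch1 (1.77). Lower in the members were the recombinase genes Rag1 (-5.39, SE 0.45) and Rag2 (-1.99, SE 0.29), with Foxo1 (-4.60), Bach2 (-2.73), Tcf3 (-1.57), Arpp21 (-1.41) and, by a small margin, Il7r (-0.51, SE 0.17, adjusted p = 0.0444). Rag1 stood at 0, 3.51, 0 and 7.48 CPM in the members against 107, 93.8, 148 and 238 CPM. Rag2 was closer, at 16.7, 14.0, 40.8 and 29.9 CPM against 116, 75.5, 117 and 109 CPM. Myl10 was shared by both populations, at 334, 260, 661 and 531 CPM against 330, 337, 346 and 165 CPM. Its difference (0.75, SE 0.25, adjusted p = 0.0415) held in 3 of 4 libraries, and by DESeq2 its adjusted p was 0.131.

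Genes of earlier progenitors were higher in the members, 7 of 8 tested with a median of 2.45, and none was lower. Angpt1 stood at 66.8, 77.3, 49.0 and 44.9 CPM against 2.82, 1.14, 0.908 and 0.656 CPM (5.43, SE 0.45, adjusted p = 1.71e-07). Bcl2, the survival factor, stood at 121, 105, 98.0 and 97.2 CPM against 4.70, 4.57, 5.45 and 15.7 CPM (3.95, SE 0.33, adjusted p = 1.67e-07), and Hoxa9, a homeobox gene of progenitors, rose by 3.84 (SE 0.34). The libraries of the members and of the B precursors did not overlap for any of these genes. The remaining highest folds were Cox6a2 (5.41), Gcnt2 (5.36), Wfdc17 (4.68), Runx2 (4.33), Ctla2a (4.23) and Bex6 (3.90). Of 18 myeloid priming genes tested, Csf3r, Csf1r, Irf8, Plac8 and Spi1 were higher and Cd9 was lower. Of 20 genes of G2 and mitosis, 14 were lower in the members and none was higher (median -1.08), whereas S phase genes had 2 higher and 2 lower of 20 (median 0.00).

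The members were also divided by Ly6d. The split was made after the values were seen and carries no test. Ly6d reached 2 UMIs in 15 members (4, 4, 4 and 3), against 661 of 7598 neutrophils (8.70%). Ebf1 was detected in 10 of these 15 members and in 4 of the other 77. Il7r was detected in 9 of 15 and in 20 of 77, and the B cell adaptor gene Blnk in 8 of 15 and in 12 of 77. The Il7r levels, as unscaled CPM of the summed UMIs, were 218 and 91.1 CPM, yet lower beside Ly6d in both WT libraries (148 against 174 CPM and 76.7 against 171 CPM), and Blnk was lower beside Ly6d in WT 2 (25.6 against 79.9 CPM). In neutrophils, whose median depth was below that of the members in every library, Ebf1 was detected in 9.19%, Il7r in 3.63% and Blnk in 3.99% of cells. Median depth differed between the sets, with 8068.5, 4960.5, 6972 and 12341 UMIs per cell beside Ly6d and 9755, 9338.5, 5636 and 4050 in the rest. Cox6a2 was at 662 CPM on this scale in the 15 members and at 125 CPM in the rest, and was higher in all 4 libraries. Mpo was detected in 6 of 15 and in 50 of 77, and Prtn3 in 6 of 15 and in 54 of 77, yet their levels were 670 and 602 CPM for Mpo and 2577 and 582 CPM for Prtn3, as 1 cell of WT 1 held 314 of that library's 346 Prtn3 UMIs. Cd34, which belongs to the rule, was at 145 and 254 CPM, and Rag2 at 16.2 and 24.0 CPM. Rag2 had only 2 UMIs beside Ly6d. Its level there was higher in TLR9-/- 2 (48.2 against 11.7 CPM) and lower in the other libraries. Without thinning, 36 members had both Mpo and Myl10, 20 had Mpo alone, 29 Myl10 alone and 7 neither. These counts take no account of free RNA. Whether both transcripts met in a cell more often than by chance was not tested.

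**Figure D2:**
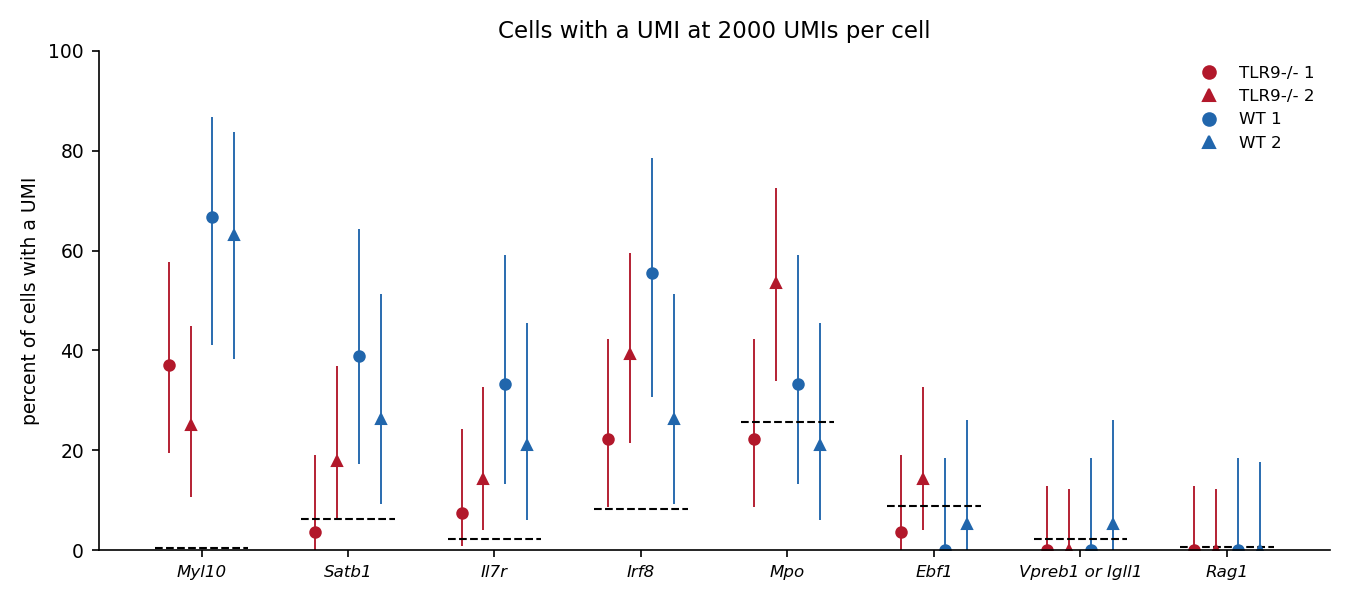
Percent of Flt3 Dntt progenitors with a UMI of each lineage gene after every cell was thinned to 2000 UMIs, per library, with exact 95% binomial intervals (counting error only). The dashed line is the mean share in neutrophils over the 4 libraries, which is no background for the granule gene Mpo. Myl10 was detected in 37.0% and 25.0% of TLR9-/- members and in 66.7% and 63.2% of WT members, and its background was near 0.

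The share of members with a transcript was then compared between genotypes at equal depth, for 8 genes fixed as a family, by an exact permutation test (two-sided), which cannot give a p below 0.33 with 2 libraries against 2. Myl10 was detected in 31.0% ± 8.51 of TLR9-/- and 64.9% ± 2.48 of WT members (SD, n = 2, exact permutation p = 0.33, adjusted over the 8 genes 0.89), and the genotypes did not overlap. Satb1 was at 3.70% and 17.9% in TLR9-/- and at 38.9% and 26.3% in WT, and Il7r at 7.41% and 14.3% against 33.3% and 21.1%, both without overlap (exact permutation p = 0.33). The Satb1 share in TLR9-/- 1 was below the 6.48% of neutrophils. Without thinning, the Il7r shares were 29.6% and 28.6% against 44.4% and 26.3% and overlapped. Mpo (22.2% and 53.6% against 33.3% and 21.1%) and Irf8 (22.2% and 39.3% against 55.6% and 26.3%) overlapped between the genotypes, although without thinning the Mpo shares were 66.7% and 78.6% against 44.4% and 42.1% and did not overlap. Mpo was detected in 25.4% of neutrophils at this depth. As a granule gene it can be made by cells of the neutrophil gate, so this share is not a level of free RNA. Ebf1 was detected in 6.52% of all members and in 7.52% of neutrophils, Vpreb1 or Igll1 in 1.09% against 1.98%, and Rag1 in none. Over all members none of these exceeded the background. By genotype, the mean Ebf1 share was 8.99% ± 7.48 in TLR9-/- and 2.63% ± 3.72 in WT members (SD, n = 2). That of Vpreb1 or Igll1 was 0% in TLR9-/- and 2.63% ± 3.72 in WT members. The higher mean of each lay above its share in neutrophils. Without thinning, Rag1 had 1 UMI in TLR9-/- 2 and 1 in WT 2.

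Cycling was read from the genes of G2 and mitosis. Cells thinned to 2000 UMIs were counted when they held at least 3 UMIs of 20 such genes. The cells were again chosen at full depth, before thinning. This was met by 10 of 27 (37.0%), 10 of 28 (35.7%), 4 of 18 (22.2%) and 4 of 19 (21.1%) members. The genotypes did not overlap, with a mean of 36.4% ± 0.935 in TLR9-/- and 21.6% ± 0.827 in WT members (SD, n = 2, exact permutation p = 0.33, the smallest possible), yet the exact 95% intervals of single libraries were wide, from 19.4% to 57.6% in TLR9-/- 1 and from 6.05% to 45.6% in WT 2. In the Dntt-negative Flt3 progenitors the shares averaged 48.2% in TLR9-/- and 31.1% in WT. Over the 4 libraries the share was 29.0% ± 8.54 in members, 30.04% ± 4.75 in stem cell-like cells and 54.1% ± 6.09 in those B precursors that had 2000 UMIs, which left out 115, 19, 193 and 131 of them. The order of members and B precursors depended on this setting, as the shares were 30.4% and 36.04% at 1000 UMIs with at least 2 UMIs of the genes, and 48.2% and 41.2% without thinning.

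**Figure D3:**
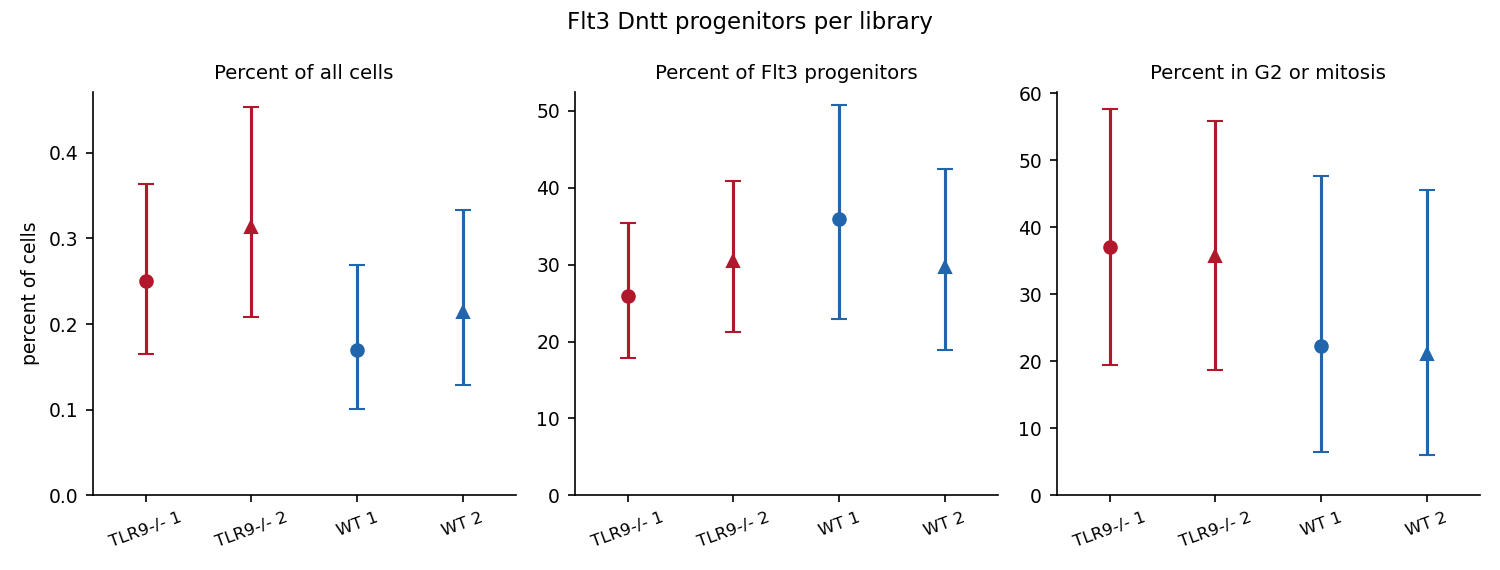
Flt3 Dntt progenitors per library as a percent of all cells, as a percent of Flt3 progenitors with or without Dntt, and the percent of them in G2 or mitosis at 2000 UMIs per cell. Points are libraries (red TLR9-/-, blue WT) and bars are exact 95% binomial intervals, which cover counting error only. The intervals of the genotypes overlap in all panels.

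Members made up 0.250%, 0.314%, 0.170% and 0.214% of all cells. The mean was 0.282% ± 0.0449 in TLR9-/- and 0.192% ± 0.0307 in WT libraries (SD, n = 2, exact permutation p = 0.33), and the genotypes did not overlap. Depth was higher in TLR9-/- cells. With cells thinned to 2000 UMIs and shallower cells left out, which kept 6365, 6312, 4675 and 4827 cells, the difference turned from 0.0903 to -0.0477 percentage points, while at 1000 UMIs it was 0.0201. The thinning and the loss of shallow cells cannot be told apart in these values. As a share of cells with a Cd34, Adgrg1 or Kit UMI, members were at 1.69% ± 0.103 and 1.58% ± 0.358 (p = 1.0 by the exact permutation test). Of all Flt3 progenitors, 26.0%, 30.4%, 36.0% and 29.7% had Dntt, a difference of -4.65 percentage points between means of 28.2% ± 3.16 and 32.8% ± 4.46 (exact permutation p = 0.67), which was -6.20 at 2000 UMIs and turned to 7.64 at 1000 UMIs, where 5, 3, 1 and 3 members were left.

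Between TLR9-/- and WT members, edgeR's test called 0 of 2458 genes (0.0%), with 127 at an unadjusted p under 0.05 and 2 genes called by DESeq2. With TLR9-/- 1, TLR9-/- 2, WT 1 or WT 2 left out in turn, 27, 20, 41 and 28 genes passed, each with 1 lone library on 1 side. All 13 lymphoid priming genes, 9 myeloid priming genes and 8 interferon response genes tested were among those that did not pass. In simulated data with the members' counts, the test recovered 100% of 8-fold, 68.8% of 4-fold and 13.8% of 2-fold changes, so that even there changes of 2-fold were mostly not recovered. The simulation gave every gene the same dispersion and held no single cells rich in a gene. Its recovery need not hold for the real counts, so 0 genes called does not exclude larger changes. Myl10, at 334 and 260 CPM in TLR9-/- and at 661 and 531 CPM in WT members, had a log2 fold change of -1.14 (SE 0.27, adjusted p = 0.394). Satb1 was at -1.12 (SE 0.32, adjusted p = 0.610) and Il7r at -0.81 (SE 0.37, adjusted p = 0.917). For Myl10 and Satb1 both TLR9-/- libraries were below both WT libraries, in levels as in shares of cells. Dntt, Flt3 and Cd34, which chose the cells, were at -0.33, -0.24 and -0.08.

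**Figure D4:**
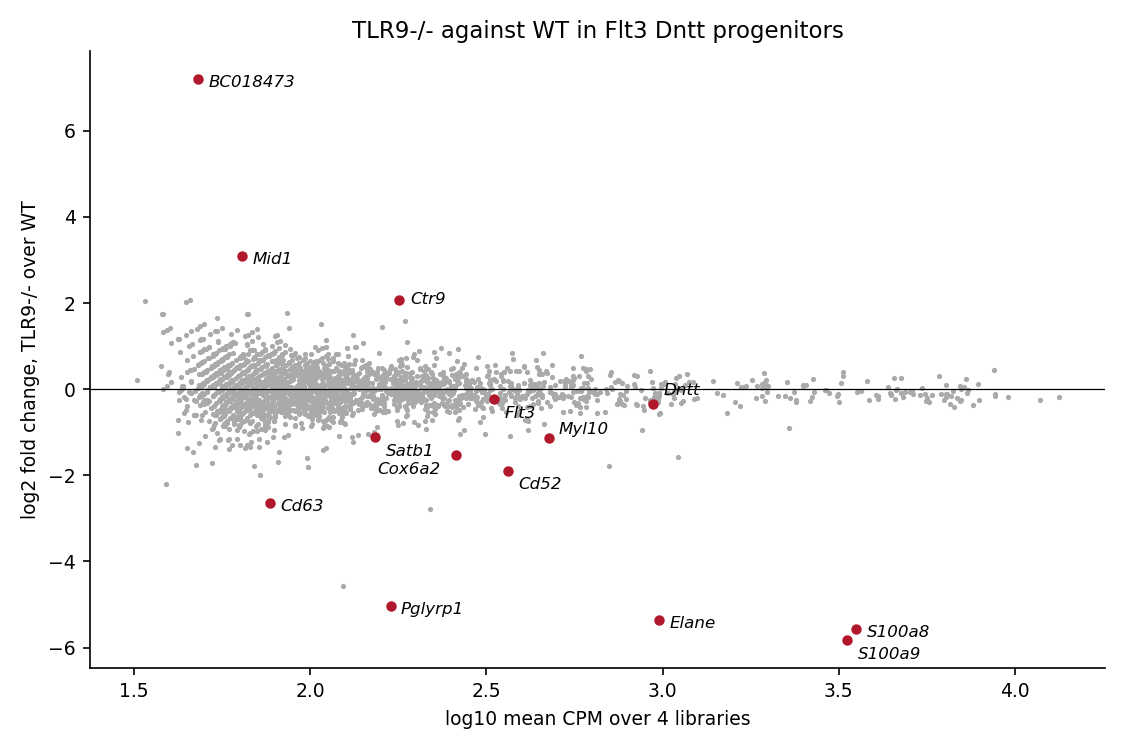
Log2 fold change of TLR9-/- over WT members against log10 of the mean CPM over the 4 libraries, for 2458 genes, of which none passed an adjusted p of 0.05. Red points are named genes; the lowest points, S100a8, S100a9 and Elane, rested on single WT cells.

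The genes with the smallest p, named after their values were seen, included several led by single cells. Pglyrp1, a peptidoglycan recognition protein of neutrophil granules, had the smallest adjusted p (0.0744, log2 fold change -5.03), and all 20 UMIs of WT 1 and 55 of 57 UMIs of WT 2 lay in 1 cell each. S100a8, S100a9 and Elane likewise owed their folds of -5.56, -5.82 and -5.36 to single WT cells, since the top cell held 1484 of 1503 S100a8 UMIs and 1474 of 1495 S100a9 UMIs in WT 2. Cd52, a small surface glycoprotein of leukocytes, stood at 163 and 147 CPM in TLR9-/- and at 465 and 576 CPM in WT members (-1.89, SE 0.28, adjusted p = 0.0880). Cox6a2 stood at 125 and 140 against 416 and 292 CPM (-1.54, SE 0.29, adjusted p = 0.167), and Cd63, a tetraspanin of granules and endosomes, at 16.7 and 24.6 against 131 and 112 CPM (-2.64, SE 0.45, adjusted p = 0.155), where 1 cell held 10 of 16 Cd63 UMIs in WT 1 and 9 of 15 in WT 2. None of these groups overlapped, and none of the genes passed edgeR's test without a replicate block. S100a8 and Pglyrp1 passed when library number was a block, and DESeq2 called Cd52 and Pglyrp1.

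Higher in TLR9-/- members, again without passing, were Mid1, BC018473 and Ctr9. Mid1, a ubiquitin ligase on microtubules, stood at 104 and 126 CPM against 16.3 and 7.48 CPM (3.10, SE 0.56, adjusted p = 0.155). It was higher in TLR9-/- in the other populations too, at 86.8 and 106 against 12.9 and 21.3 CPM in Dntt-negative Flt3 progenitors, 82.8 and 101 against 12.3 and 15.8 CPM in stem cell-like cells, and 46.0 and 50.3 against 9.08 and 10.5 CPM in B precursors. BC018473, annotated as an antisense gene, had 21 and 30 UMIs in TLR9-/- and 0 in WT members, and 0 UMIs in WT libraries of all 4 populations. How strand was used in the counting was not given in the sources used here, so its reads and those of an overlapping gene cannot be told apart. Ctr9, a subunit of the PAF1 complex on RNA polymerase II, stood at 234 and 348 against 32.7 and 89.7 CPM in members (2.07, SE 0.45, adjusted p = 0.294), but at 38.6 and 41.1 against 43.0 and 52.0 CPM in Dntt-negative cells, and its top cells held 16 of 56 and 31 of 99 UMIs in TLR9-/- 1 and 2.

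Whether a genotype difference was larger in members than in Dntt-negative Flt3 progenitors was tested by the interaction term. It called 0 of 4057 genes (0.0%), with 188 at an unadjusted p under 0.05 and 0 genes by DESeq2, while 44 genes passed without WT 1 and 19 without WT 2. Ctr9 had an interaction of 2.42 on the log2 scale (SE 0.49, adjusted p = 0.961) and Myl10 of 0.46 (SE 0.71, adjusted p = 0.998), so no gene's difference was shown to be particular to the members.

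The disrupted gene could not be read in these cells. Tlr9 (ENSMUSG00000045322, chromosome 9, 106222598 to 106226883 on GRCm38) had 1 UMI in the members of TLR9-/- 1 and 0 in the other libraries. In the 241008 UMIs of the WT members, a count of 0 allows a level of up to 12.4 CPM (3 UMIs over both libraries). The related endosomal receptor gene Tlr7 stood at 12.5, 10.5, 16.3 and 22.4 CPM in members and was detected in 10.9% of them and 2.17% of neutrophils without thinning, but in 2 of 92 members (2.17%) and 1.12% of neutrophils at 2000 UMIs per cell. Of the 17 genes of the TLR9 pathway, Unc93b1, the chaperone of endosomal receptors, was lower in members than in Dntt-negative cells (-1.03, SE 0.22, adjusted p = 0.0128) and B precursors (-0.95, SE 0.19) and higher than in stem cell-like cells (1.60, SE 0.29). The other 4 pathway genes tested against Dntt-negative cells, Irak1, Nfkb1, Tab2 and Nfkbia, did not pass. Against B precursors Irak1 and Nfkb1 were higher among 11 tested, so that 3 of 11 were called beside 20.6% of all genes, and between genotypes none of 4 tested pathway genes passed.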

How the data were processed

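Bone marrow mononuclear cells were profiled by 10x Genomics 5′ single-cell RNA sequencing. Cell Ranger 3.0.1, per the file headers, gave the deposited UMI counts per gene and cell, aligned to mm10; these were used as deposited, without the authors' later normalization in Seurat 2.3.4. Total UMIs in the cells kept were 50204578, 63958243, 31210188 and 41384657, so WT values carry more counting error. The printed mitochondrial limit was read as 10%. Genotypes were taken from the labels, and each library is 1 mouse. The members and the gene lists were chosen with earlier results of these data known. UMIs were summed per library and population and tested with edgeR 4.0.16 (TMM, filterByExpr, quasi-likelihood) in R 4.3.3, without the genes of the gates, at an adjusted p of 0.05; DESeq2 1.42.0, other filters, thinning, likely doublets (not removed in the main analysis) and each library were alternatives. Named genes were the 10 highest and 10 lowest folds that passed, moved alike in all 4 libraries and reached 50 CPM in the higher population, and the most abundant genes of each list. Gene positions are from GENCODE M21 and promoters from RefSeq. The tests were run on simulated counts first. Some genes of the lists are not reported here.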

Additional observations from a re-analysis of the deposited data

How the results depend on the processing

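Counts of genes passing the test moved with the filter, the tool and the libraries. For genotype in members, 0 genes became 37 with no filter, 10 with at least 10 UMIs in every library of 1 genotype, 2 with DESeq2 (Cd52 and Pglyrp1), 1 with Dntt and Flt3 at 2 or more UMIs (Pglyrp1), 2 with the replicate block (S100a8 and Pglyrp1), and 20 to 41 with 1 library left out, where the lone library is assumed to vary like the others. Against Dntt-negative Flt3 progenitors, 275 became 148 with DESeq2, 597 with no filter, 85 when thinned to 2000 UMIs, 122 without likely doublets, 127 without the library block, and 92 to 274 with 1 library left out (92 without TLR9-/- 2, 115 without TLR9-/- 1). Against stem cell-like cells, 136 became 78, 308, 41, 31 and 70 in the same order, and 39 to 226 with 1 library left out (39 without TLR9-/- 1, 62 without TLR9-/- 2, 226 without WT 1). Against B precursors, 1243 became 465 when thinned and 870 to 1227 with 1 library left out. The interaction gave 20 with no filter and 1 to 44 with 1 library left out (44 without WT 1). The cause of each change was not tested.

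Same-numbered libraries were checked for pairing, since the labels do not say that the numbers mark the 2 experiments. The deviations from the genotype means correlated at r = 0.106 over 2458 genes in members, 0.235 in Dntt-negative cells and 0.282 in B precursors (pseudocount 10 CPM), with 2 pairs only. A block cannot change a difference in shares with 1 library of each genotype per number, so those values (0.0903, -4.65 and 14.7 percentage points) bear on nothing.

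The difference in the share of all cells (0.0903, and 0.0585 to 0.122 with 1 library left out) turned to -0.0477 percentage points at 2000 UMIs per cell. That of Dntt among Flt3 progenitors (-4.65, and -7.80 to -1.49 with 1 library left out) turned to 7.64 at 1000 UMIs. The cycling difference was 14.1 to 15.4 with 1 library left out, but 7.73 to 16.3 at 1000 UMIs and 11.99 to 28.7 without thinning. Without thinning the Rag1 difference was -0.846 instead of 0 and that of Irf8 1.83 instead of -10.2, that of Il7r -6.28 instead of -16.3 and that of Mpo 29.3 instead of 10.7. With 1 library left out the differences ranged from -4.97 to 26.4 for Mpo, -24.8 to 4.44 for Irf8, -5.26 to 0.0 for Vpreb1 or Igll1, 1.07 to 11.7 for Ebf1, -22.5 to -10.2 for Il7r, -28.9 to -14.7 for Satb1 and -39.9 to -27.9 for Myl10. Leaving out cells with 20 or more UMIs of a mature lineage was an alternative added once the data had been seen, and gave 0 genes for genotype and turned S100a9 against Dntt-negative cells to 0.51.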

Other observations

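The counts below stand beside 8.54% of all genes called against Dntt-negative Flt3 progenitors and 20.6% against B precursors. Against Dntt-negative Flt3 progenitors, Isg15 was higher and Ly6e lower among 8 interferon response genes tested, none of 7 early response genes passed, and none of 5 erythroid and megakaryocyte genes passed. Of 7 dendritic cell genes tested there, Cox6a2 and Tcf4, the E protein of plasmacytoid dendritic cells, were higher and H2-Aa and Cd74 were lower. Tcf4 stood at 138, 126, 155 and 164 CPM in members and at 75.8, 72.6, 60.2 and 73.3 CPM in Dntt-negative cells, a log2 fold change of 1.17 (SE 0.18, edgeR adjusted p = 0.00198). Against B precursors, Nkg7 (1.23, SE 0.22, edgeR adjusted p = 0.000513) and Lck (1.21, SE 0.34, edgeR adjusted p = 0.0176) were higher and Ets1 was lower among 3 T, NK and innate lymphoid genes tested. Of 16 genes for adhesion and transcription factors of lymphoid progenitors tested there, 4 were higher and none was lower.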
